A study of Rattus norvegicus with 24 samples.

Results

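Synaptic vesicle and SNARE genes were followed through retinal and brain microvessels and the tissues they were taken from. The genes were the numbered synaptotagmins (Syt), VAMPs (Vamp) and syntaxins (Stx), the syntaxin-binding proteins (Stxbp), the SV2 proteins, complexins, Rab3a to Rab3d, synapsins (Syn1, Syn2 and Syn3), Syp, Snap25, Napa, Napb and Napg. Of 18166 genes measured by an array cluster with a single symbol, 61 were members. They are covered by 62 clusters, since Stx1a has a second one. Members were taken by their symbols.

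Vesicles release their content when SNARE proteins on the vesicle (VAMPs) zip together with SNARE proteins on the target membrane (syntaxins and SNAP-25) and pull the membranes into contact. At nerve terminals synaptotagmins sense calcium, complexins hold and release the assembled SNAREs, and the ATPase NSF with its SNAP adaptors takes the spent complex apart. All cells use relatives of the same machinery for traffic between organelles and to the surface, so the family holds genes of neurons as well as genes of any cell. In the retina, photoreceptors and bipolar cells release transmitter at ribbon synapses, which use syntaxin 3 and, in the mouse, complexins 3 and 4.

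Microvessels of the retina (RMVs) were set beside whole retinal tissue (RT), and microvessels of the brain (BMVs) beside brain tissue (BT). Brains had been freed of white matter, choroid plexus, meninges and superficial vessels. Each of the 4 groups had 6 arrays from male Wistar rats aged 12 weeks. All rats were untreated, and all 4 groups came from the same 6 animals. Microvessels were prepared mechanically from cryosections of the eyes and of a brain hemisphere, by homogenization, a dextran gradient and a nylon mesh, while a few sections were kept as tissue. A microvessel preparation therefore holds every cell type that stays on the mesh, and its values are averages over them. Signals are the deposited log2 values of Affymetrix Rat Gene 2.0 ST arrays, on which a step of 1 is a 2-fold difference. A gene was called higher or lower at a difference of at least 1 and an adjusted p under 0.05 in limma over all 18166 genes. Array medians ran from 6.76 to 6.83 in RMVs, 6.10 to 6.22 in RT, 6.48 to 6.55 in BMVs and 5.81 to 5.95 in BT. Arrays of a group correlated at 0.981 to 0.989 over genes. The SD of a member within a group had a median of 0.13 and a highest value of 0.42 on the log2 scale.

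The labelled tissues were first checked against defining markers. The 4 measured endothelial markers averaged 11.57 to 12.08 per array in RMVs, against 7.52 to 8.07 in RT, and 12.58 to 12.67 in BMVs, against 8.48 to 8.62 in BT. All 4 were called higher in both microvessel groups. The neuronal markers behaved differently in the retina and in the brain. Their 4 measured genes averaged 8.24 to 8.42 in RMVs, against 9.11 to 9.50 in RT, and 8.21 to 8.69 in BMVs, against 11.22 to 11.44 in BT. None of the 5 measured photoreceptor markers was called in RMVs against RT, with array means of 12.36 to 12.70 in RMVs and 12.63 to 12.77 in RT. In BMVs and BT the photoreceptor markers lay between 4.71 and 5.28. Photoreceptor markers were thus measured in the RMV preparation at nearly their tissue level, and the part of these cells in the values below was not tested. In such mixed samples fewer cells of a type and less RNA per cell cannot be told apart.

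**Figure D1:**
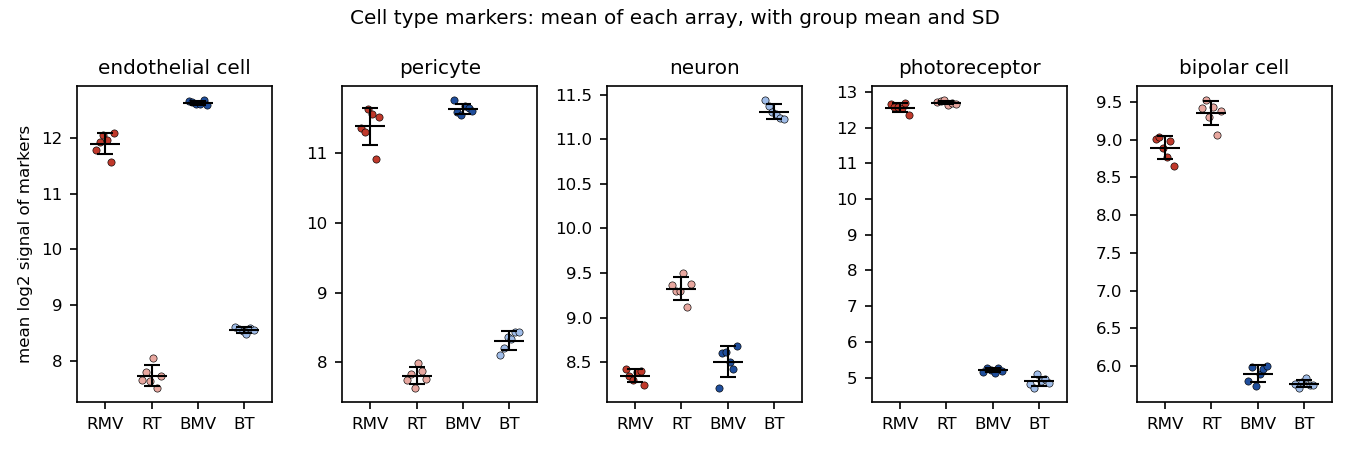
Mean log2 signal of the measured markers of 5 cell types on each array (points), with the group mean and SD (bars, n = 6 arrays), in RMVs, RT, BMVs and BT. Endothelial and pericyte markers stood above tissue in both microvessel groups, while photoreceptor markers averaged 12.57 in RMVs and 12.70 in RT and neuronal markers 8.51 in BMVs and 11.31 in BT.

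The promoter windows of 3 members that stand for the patterns below are shown from RefSeq (build GRCr8), each as the 250 bases before the annotated start, 5′ to 3′ on the gene's strand. Syn1 fell in both microvessel groups, Cplx4 was measured high in both retinal groups, and Vamp5 was higher in both microvessel groups. Syn1 lies at chrX:3725495-3725744 (plus strand), Cplx4 at chr18:61767755-61768004 (minus strand) and Vamp5 at chr4:105993248-105993497 (minus strand). Capitals mark the full cyclic AMP response element TGACGTCA in Syn1, beginning at position -190 from the start, and the letters TAATCC, which the photoreceptor homeobox factor CRX binds, in Cplx4, beginning at -56. No motif is marked in Vamp5.
Syn1: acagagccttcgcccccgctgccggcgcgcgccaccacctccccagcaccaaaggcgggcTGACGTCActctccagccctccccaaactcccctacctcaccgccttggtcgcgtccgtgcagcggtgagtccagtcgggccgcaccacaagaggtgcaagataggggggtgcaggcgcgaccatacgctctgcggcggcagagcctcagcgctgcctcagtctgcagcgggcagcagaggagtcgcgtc
Cplx4: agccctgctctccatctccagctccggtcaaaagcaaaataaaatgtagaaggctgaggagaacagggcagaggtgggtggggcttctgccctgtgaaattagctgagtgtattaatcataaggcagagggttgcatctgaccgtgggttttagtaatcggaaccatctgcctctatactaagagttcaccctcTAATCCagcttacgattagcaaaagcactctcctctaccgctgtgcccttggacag
Vamp5: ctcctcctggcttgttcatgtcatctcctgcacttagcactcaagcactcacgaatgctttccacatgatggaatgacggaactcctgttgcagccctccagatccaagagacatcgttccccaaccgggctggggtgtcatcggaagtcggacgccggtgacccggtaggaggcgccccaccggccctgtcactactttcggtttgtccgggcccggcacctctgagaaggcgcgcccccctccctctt

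Of the 61 members, 51 had a promoter in that table. Searched on both strands, TGACGTCA was in 3 of the 51 (Syn1, Napa and Vamp1; 5.88%), against 1.59% of all 33469 promoters, and TAATCC was in Cplx4 alone (1.96%), against 6.34% of all. The GC box GGGCGG was in 32 members (62.7%), against 30.5% of all promoters, and TATAAA was in 3 (5.88%), against 12.9%. No hits of different motifs overlapped in the members. Member windows had a median GC content of 60.8%, against 51.2% over all promoters. These matches describe letters in a window and no binding.

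Against their tissue, more members were called lower in BMVs than in RMVs. In BMVs against BT, 33 members were lower, against a background of 10.5% of all genes called lower, and 9 were higher, against a background of 16.3%. The 33 are 54.1% of the members. In RMVs against RT, 10 members were lower (16.4%, background 0.947%) and 6 were higher (9.84%, background 10.3%). The median member differed by -1.12 in BMVs minus BT, where the median of all genes was 0.30, and by -0.07 in RMVs minus RT, where it was 0.33. Quantile normalization placed the median of all genes at -0.15 in both contrasts. It left 15 lower and 4 higher members in RMVs, where it called 918 lower and 933 higher of all 18166 genes. In BMVs it left 38 lower and 7 higher members, against 2444 lower and 1800 higher of all genes. Centring each array on its median gave 25 lower and 2 higher members in RMVs. Calls over all genes were not counted for that centring. The number lower in RMVs thus depends on the scaling. All counts of lower members stayed above the counts of higher ones in both tissues under these scalings.

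Of the 4 core fusion proteins of the nerve terminal that were measured, 3 were called lower in BMVs against BT (75%, background 10.5%). None was called in RMVs against RT, where the background was 0.947% lower and 10.3% higher. Centring on array medians also called Snap25 (-1.13) and Vamp2 (-1.01) lower in RMVs, and Vamp2 (-1.19) in BMVs. Snap25, which supplies a pair of helices to the SNARE bundle, had a lowest, median and highest signal of 11.77, 11.97 and 12.06 in BMVs, against 13.61, 13.66 and 13.74 in BT (log2 difference -1.72 ± 0.06, SE, adjusted p = 1.19e-19). In RMVs its values were 12.61, 12.77 and 12.87, against 13.18, 13.25 and 13.31 in RT (-0.49 ± 0.06, adjusted p = 4.99e-08). No array of either microvessel group reached the lowest array of its tissue, but the difference in the retina was under 2-fold.

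Stx1a, the syntaxin of the presynaptic membrane, followed another order. It had 8.08, 8.38 and 8.52 in RMVs and 8.20, 8.34 and 8.47 in RT, with overlapping arrays and a difference of 0.04 ± 0.07 (adjusted p = 0.609). In BMVs it had 9.36, 9.59 and 9.71, against 11.43, 11.54 and 11.69 in BT (-1.99 ± 0.07, adjusted p = 5.94e-19). Both retinal groups therefore lay below both brain groups, by -1.20 ± 0.07 for RMVs minus BMVs (adjusted p = 1.55e-13) and by -3.23 ± 0.07 for RT minus BT (adjusted p = 2.12e-23). The second cluster of the gene gave 8.32 ± 0.16 in RMVs, 8.31 ± 0.07 in RT, 9.27 ± 0.12 in BMVs and 11.14 ± 0.10 in BT (mean ± SD, n = 6).

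The vesicle SNAREs Vamp1 and Vamp2 differed from each other. Vamp1 had 8.47, 8.94 and 9.24 in BMVs, against 11.14, 11.27 and 11.36 in BT (-2.33 ± 0.11, adjusted p = 4.76e-17), and 8.83, 9.14 and 9.21 in RMVs, against 9.18, 9.34 and 9.65 in RT (-0.31 ± 0.11). Vamp2, the main vesicle SNARE of forebrain synapses, had 9.60, 9.78 and 9.83 in BMVs, against 10.26, 10.31 and 10.44 in BT, a difference of -0.58 ± 0.06 (adjusted p = 3.08e-09) that stayed under 2-fold. In RMVs it had 10.03, 10.34 and 10.40, against 10.58, 10.67 and 10.71 in RT (-0.37 ± 0.06). The arrays of Vamp1 in RMVs and RT overlapped, whereas those of Vamp2 did not overlap in either tissue.

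**Figure D2:**
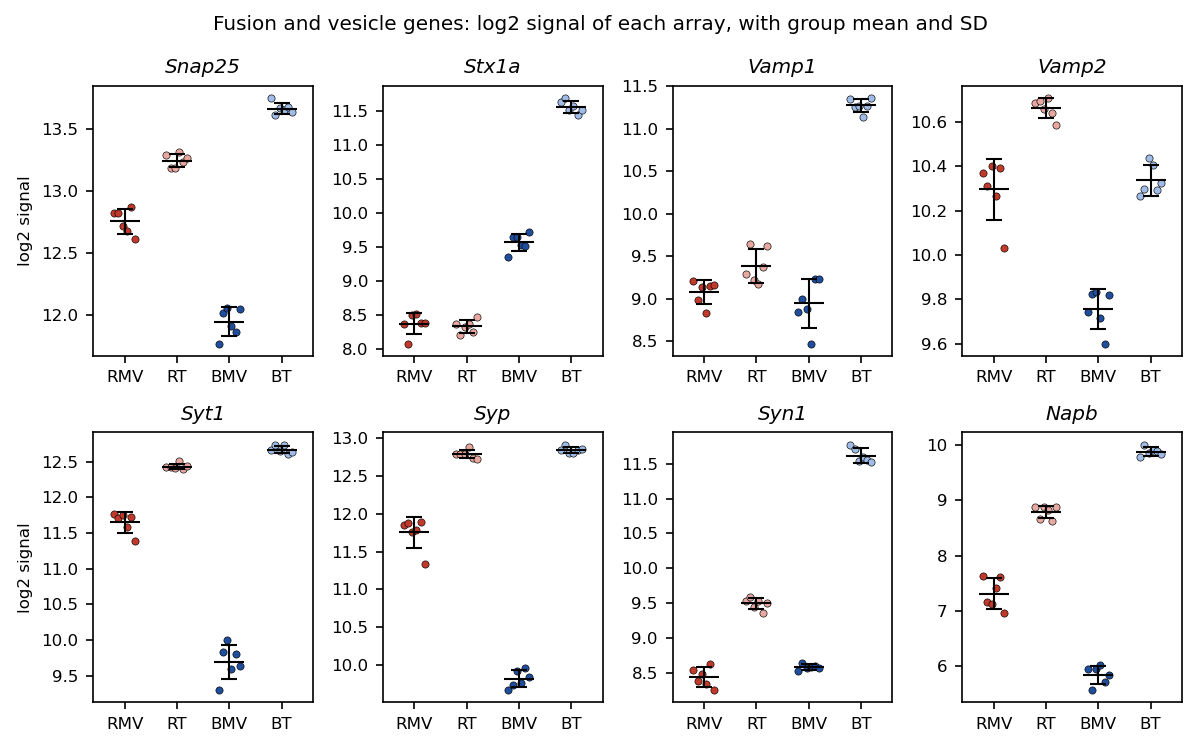
Log2 signal of 8 fusion and vesicle genes on each array (points) in RMVs, RT, BMVs and BT, with the group mean and SD (bars, n = 6 arrays); each panel has its own axis. Stx1a and Vamp1 were highest in BT, while Syt1, Syp and Napb were lowest in BMVs and intermediate in RMVs.

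Complexins differed by subtype, in part depending on the scaling. Cplx1 and Cplx2, the complexins of conventional synapses, were lower in BMVs than in BT by -2.76 ± 0.09 and -2.06 ± 0.07. In RMVs they were lower than in RT by -0.65 ± 0.09 and -1.0 ± 0.07. Cplx1 was called lower in RMVs after quantile normalization (-1.32) and after centring on array medians (-1.29). Quantile normalization called 3 of the 4 complexins lower in RMVs against RT and 3 in BMVs against BT. It called 918 of all 18166 genes lower in RMVs and 2444 in BMVs. The change of Cplx2 in RMVs lay at the threshold. Its values were 9.03, 9.24 and 9.31 in RMVs, against 10.11, 10.22 and 10.40 in RT (adjusted p = 3.82e-13), and the difference was under 2-fold, at -0.97, without the array of replicate 6 in RMVs, and also without replicate 3 or 4 of RT. Cplx3, a retinal complexin, had 8.62, 8.78 and 8.94 in RMVs, against 9.99, 10.05 and 10.29 in RT (-1.30 ± 0.09, adjusted p = 3.82e-12). It was measured at 6.28, 6.50 and 6.87 in BMVs, against 6.87, 7.20 and 7.47 in BT (-0.65 ± 0.09). Cplx3 was the only member called lower in RMVs that was not also called lower in BMVs, where it passed the threshold after quantile normalization (-1.10). Cplx4, known from mouse photoreceptor terminals, had 10.40, 10.74 and 11.00 in RMVs, against 10.86, 11.23 and 11.45 in RT (-0.45 ± 0.12, adjusted p = 0.00111). Centring on array medians called it lower there (-1.10). In the brain it had 5.08, 5.52 and 5.87 in BMVs, against 5.20, 5.41 and 5.58 in BT (0.10 ± 0.12, adjusted p = 0.444), where the arrays overlapped.

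The synaptotagmins with calcium-binding forms of their C2 domains were lower in BMVs almost throughout. Of 8, 7 were called lower in BMVs against BT (87.5%, background 10.5%) and none was called in RMVs against RT (background 0.947% lower, 10.3% higher). Quantile normalization called Syt2 and Syt10 lower in RMVs, and centring on array medians called Syt1 (-1.42), Syt2 (-1.34), Syt9 (-1.20) and Syt10 (-1.20). Syt1, the calcium sensor of fast release, had 9.30, 9.72 and 10.00 in BMVs, against 12.61, 12.65 and 12.74 in BT (-2.98 ± 0.08, adjusted p = 2.39e-21). In RMVs it had 11.38, 11.71 and 11.76, against 12.39, 12.43 and 12.50 in RT (-0.78 ± 0.08, adjusted p = 7.61e-09). Its 2 tissues thus lay close together, whereas BMVs stood well below RMVs. Syt5 and Syt3 were lower in BMVs and not called in RMVs. The BMV minus BT differences were -2.49 ± 0.07 and -1.64 ± 0.08, and the RMV minus RT differences were 0.22 ± 0.07 and 0.50 ± 0.08, and that of Syt3 turned to -0.08 after quantile normalization. Syt7, a slow sensor, stood at -0.99 ± 0.10 in BMVs minus BT, at the edge of the threshold.

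Among the 8 synaptotagmins with little or no calcium binding, 6 were lower (75%, background 10.5%) and 2 higher (25%, background 16.3%) in BMVs against BT. In RMVs against RT, 2 were lower (25%, background 0.947%) and 1 higher (12.5%, near the background of 10.3%). Syt4 was lower in both, at -3.39 ± 0.10 in BMVs minus BT (adjusted p = 8.64e-21) and -1.03 ± 0.10 in RMVs minus RT (adjusted p = 1.72e-09), the second under 2-fold without replicate 4 or 6 of RMVs or replicate 4 of RT. Syt13 was also lower in both, at -2.64 ± 0.11 in BMVs and -1.12 ± 0.11 in RMVs. Syt16 and Syt17 were called lower in BMVs and not in RMVs, and the difference between the tissues was called for both (2.48 ± 0.12 and 2.59 ± 0.21 for the RMV minus the BMV change). Syt8 and Syt15 were the higher ones. Syt8 had 7.31, 7.44 and 7.74 in BMVs, against 5.58, 5.64 and 5.83 in BT (1.80 ± 0.08). In RMVs it had 6.98, 7.15 and 7.37, against 5.78, 5.92 and 5.99 in RT (1.25 ± 0.08, adjusted p = 1.04e-13). The call of Syt8 in RMVs was lost after quantile normalization (0.66) and after centring on array medians (0.61). Syt15 was called higher in BMVs and not in RMVs, with 7.54, 7.75 and 8.02 in BMVs, against 5.47, 5.86 and 5.97 in BT (1.99 ± 0.10), but 7.49, 7.57 and 7.77 in RMVs and 7.27, 7.63 and 7.77 in RT (0.01 ± 0.10).

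Proteins of the vesicle membrane and coat gave the most calls in RMVs. Of 11 genes, 5 were lower (45.5%, background 0.947%) and 1 was higher (9.09%, background 10.3%) in RMVs against RT. In BMVs against BT, 9 were lower (81.8%, background 10.5%) and 1 was higher (9.09%, background 16.3%). Syp (synaptophysin, the abundant vesicle membrane protein) had 11.34, 11.82 and 11.90 in RMVs, against 12.73, 12.79 and 12.89 in RT (-1.04 ± 0.08, adjusted p = 4.02e-12), and it had 9.66, 9.80 and 9.96 in BMVs, against 12.81, 12.85 and 12.92 in BT (-3.03 ± 0.08, adjusted p = 2.37e-22). The call in RMVs was lost without replicate 6 of RMVs, at -0.96. Syn1, a coat protein that ties vesicles to the cytoskeleton, had 8.25, 8.43 and 8.63 in RMVs, against 9.36, 9.52 and 9.59 in RT (-1.06 ± 0.06), and 8.53, 8.58 and 8.64 in BMVs, against 11.53, 11.57 and 11.77 in BT (-3.03 ± 0.06). Syn2 and Syn3 were called lower in BMVs and not in RMVs, and the change in RMVs exceeded that in BMVs by 2.24 ± 0.11 and 1.66 ± 0.17. Syn2 was called lower in RMVs after centring on array medians (-1.12).

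The SV2 glycoproteins, of which SV2A is the binding site of levetiracetam, were lower in BMVs for all 3 genes. Sv2b had 10.57, 10.97 and 11.12 in RMVs, against 12.13, 12.29 and 12.36 in RT (-1.32 ± 0.08, adjusted p = 2.78e-14), and 8.53, 8.70 and 8.85 in BMVs, against 12.02, 12.08 and 12.19 in BT (-3.39 ± 0.08, adjusted p = 3.58e-23). Sv2c was lower in both (-1.20 ± 0.10 in RMVs minus RT and -1.57 ± 0.10 in BMVs minus BT), and the difference between the 2 changes was 0.36 ± 0.15, under 2-fold. Sv2a was lower in BMVs (-2.50 ± 0.08), while in RMVs the difference was -0.81 ± 0.08. Of the Rab3 GTPases, which dock vesicles, Rab3c was lower in both microvessel groups (-1.25 ± 0.08 in RMVs, -2.95 ± 0.08 in BMVs) and Rab3a in BMVs (-2.24 ± 0.08). Rab3b was not called in either (-0.46 ± 0.09 in RMVs, -0.95 ± 0.09 in BMVs), but in BMVs it was called lower after quantile normalization (-1.15). Centring on array medians called Rab3a (-1.03) and Rab3b (-1.10) lower in RMVs, and Rab3b (-1.56) in BMVs. Rab3d, known from granules of secretory cells, was higher, with 8.80, 9.17 and 9.54 in RMVs, against 7.11, 7.44 and 7.54 in RT (1.74 ± 0.10), and 9.67, 9.95 and 10.04 in BMVs, against 7.98, 8.06 and 8.26 in BT (1.80 ± 0.10).

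Of the SNAP adaptors that recruit NSF, Napb showed the widest gap between BMVs and BT of all members. This adaptor of neurons had 5.57, 5.90 and 6.02 in BMVs, against 9.77, 9.86 and 10.00 in BT (-4.03 ± 0.10, adjusted p = 1.58e-22), and 6.96, 7.28 and 7.62 in RMVs, against 8.63, 8.84 and 8.88 in RT (-1.47 ± 0.10, adjusted p = 7.02e-13). Napa, its ubiquitous relative, had 9.30, 9.52 and 9.63 in BMVs, against 10.50, 10.66 and 10.84 in BT (-1.16 ± 0.07). In RMVs it had 9.44, 9.68 and 9.74, against 9.49, 9.56 and 9.66 in RT (0.07 ± 0.07, adjusted p = 0.392). Napg had 9.39, 9.53 and 9.71 in BMVs, against 11.13, 11.17 and 11.25 in BT (-1.65 ± 0.07), and 9.60, 9.77 and 10.02 in RMVs, against 10.26, 10.32 and 10.34 in RT (-0.51 ± 0.07). Napg was called lower in RMVs after centring on array medians (-1.15). Napa was the adaptor whose arrays overlapped in the retina.

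Among 16 SNAREs of general membrane traffic, 4 were higher (25%, background 10.3%) and none was lower in RMVs against RT. In BMVs against BT, 3 were higher (18.8%, near the background of 16.3%) and 2 lower (12.5%, background 10.5%). Vamp5, first described in muscle, had 9.09, 9.42 and 9.74 in RMVs, against 7.15, 7.31 and 7.58 in RT (2.10 ± 0.09, adjusted p = 1.27e-16), and 11.13, 11.25 and 11.36 in BMVs, against 7.52, 7.72 and 7.94 in BT (3.51 ± 0.09, adjusted p = 8.09e-22). Vamp8, a SNARE of late endosomes and granule release, had 9.56, 10.17 and 10.30 in RMVs, against 8.58, 8.75 and 9.18 in RT (1.25 ± 0.11), and 11.45, 11.53 and 11.72 in BMVs, against 8.97, 9.06 and 9.24 in BT (2.49 ± 0.11). For both genes the microvessel arrays lay above all tissue arrays and BMVs lay above RMVs. The 3 fibroblast markers averaged 5.85 in RMVs and 4.84 in RT, and 10.93 in BMVs and 6.96 in BT. The 2 measured smooth muscle markers averaged 10.81 in RMVs and 7.16 in RT, and 12.02 in BMVs and 7.52 in BT. The part of these cells in the differences of Vamp5 and Vamp8 was not tested. Vamp3, the VAMP of recycling endosomes, was higher by nearly equal amounts, 1.47 ± 0.08 in RMVs minus RT and 1.51 ± 0.08 in BMVs minus BT, and the difference between these was -0.03 ± 0.11. Centring on array medians took Vamp3 (0.83 in RMVs, 0.90 in BMVs) and, in RMVs, Vamp8 (0.61) below 2-fold.

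Stx11, a syntaxin of granule release in immune cells, was the remaining higher member in RMVs (1.22 ± 0.10). Its signals, 5.73 to 5.95 in RMVs and 4.41 to 4.74 in RT, lie below the first quartile of all genes. The call was lost after quantile normalization (0.61) and after centring on array medians (0.58). The lower SNAREs in BMVs were the endosomal syntaxins Stx6 (-1.07 ± 0.07) and Stx7 (-1.10 ± 0.06). The other general SNAREs were not called in either tissue, with differences of -0.17 to 0.84 in RMVs minus RT and of -0.99 to 0.54 in BMVs minus BT. Quantile normalization also called Vamp4 (-1.14) and Stx19 (-1.05) lower in BMVs, which made 4 lower of the 16, against 2444 of all 18166 genes. Centring on array medians called Vamp4 (-1.60), Vamp7 (-1.26) and Stx16 (-1.15) lower in BMVs. Stx4, the plasma membrane syntaxin of many cell types, was not called in either tissue, at 0.84 ± 0.08 in RMVs and 0.50 ± 0.08 in BMVs.

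Syntaxin-binding proteins gave few calls. None of 6 was called in RMVs, and in BMVs 2 were higher (33.3%, background 16.3%) and 1 lower (16.7%, background 10.5%). In BMVs Stxbp4, a partner of Stx4, was higher by 1.45 ± 0.10 and Stxbp2, the Munc18 form of platelets and mast cells, by 1.14 ± 0.10. Both calls were lost after quantile normalization, and also after centring on array medians (0.84 and 0.53). Stxbp5l, a tomosyn that blocks SNARE assembly, was lower in BMVs, with 7.07, 7.36 and 7.79, against 9.86, 10.05 and 10.26 in BT (-2.64 ± 0.12), while RMVs and RT differed by -0.29 ± 0.12. Stxbp6, or amisyn, stood at 0.85 ± 0.09 in RMVs minus RT and at -0.12 ± 0.09 in BMVs minus BT.

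**Figure D3:**
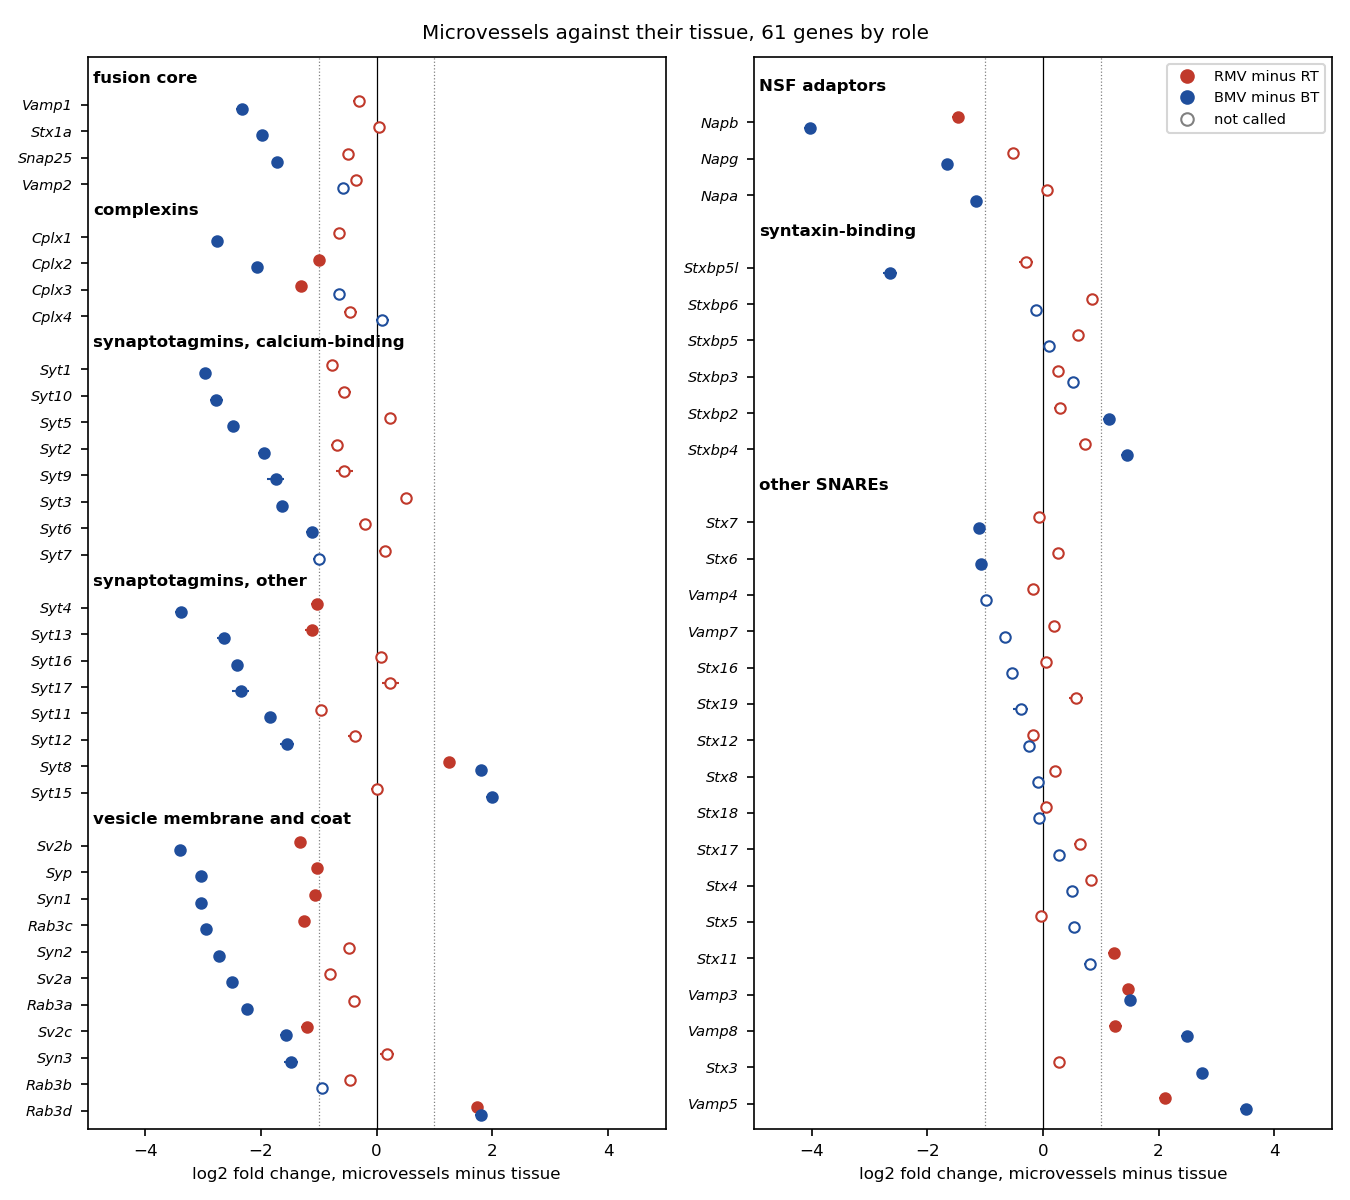
Log2 fold change (microvessels minus tissue, with SE) of the 61 genes by role, for RMV minus RT and BMV minus BT; filled points passed both thresholds, open points missed at least 1, and dotted lines mark a 2-fold difference. In the vesicle and synaptotagmin groups most BMV points lie to the left of the RMV points, and Vamp5, Vamp8, Vamp3 and Rab3d lie to the right in both.

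The calls of both tissues overlapped. Of the 10 members lower in RMVs, 9 were among the 33 lower in BMVs, which is 90% of the first list and 27.3% of the second. Of the 6 higher in RMVs, 5 were among the 9 higher in BMVs (83.3% and 55.6%), and no member was called in opposite directions. Over all genes, 138 of the 172 lower in RMVs were among the 1903 lower in BMVs (80.2% and 7.25%), and 1341 of the 1873 higher in RMVs were among the 2969 higher in BMVs (71.6% and 45.2%). The 33 members lower in BMVs were chosen by their BMV minus BT difference, so a larger fall there is partly fixed by that choice. Their median difference was -2.33 in BMVs minus BT and -0.51 in RMVs minus RT. Such medians were not computed for all genes lower in BMVs. Of the 33, 24 were not called in RMVs. Of these 24, 17 had an adjusted p under 0.05 in RMVs with a difference under 2-fold, counted in either direction. Syt3 and Syt5, for example, were among the 24 but had higher means in RMVs than in RT. The share of all genes at that adjusted p was not counted.

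The difference between the 2 changes was tested directly, as RMV minus RT less BMV minus BT. It was called above 0 for 31 members (50.8%, background 10.4%) and below 0 for 4 (6.56%, background 5.15%), with a median of 1.04 over the members and 0.07 over all genes. After quantile normalization 24 of the 31 and all 4 remained, and the member median was 0.79. Of the 33 genes lower in BMVs, 30 were among those above 0. The BMV minus BT difference enters both calls with opposite sign, so this overlap is partly built in. The matching share of all genes lower in BMVs was not counted. Syt5 led the genes above 0 at 2.71 ± 0.10, followed by Syt17 at 2.59 ± 0.21 and Napb at 2.56 ± 0.14. The 4 genes below 0 were Stx3 (-2.47 ± 0.12), Syt15 (-1.98 ± 0.15), Vamp5 (-1.40 ± 0.13) and Vamp8 (-1.24 ± 0.15). The neuronal markers moved in the same way as the members: they averaged 8.35 in RMVs and 9.32 in RT, but 8.51 in BMVs and 11.31 in BT. Their part in the members' difference was not tested.

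Set against each other directly, the microvessels gave 17 calls and the tissues 26. In RMVs against BMVs, 12 members were higher (19.7%, background 5.72%) and 5 were lower (8.2%, background 5.25%). In RT against BT, 6 were higher (9.84%, background 6.29%) and 20 lower (32.8%, background 11.1%). Centring each array on its median changed the microvessel comparison to 9 higher and 7 lower. The 20 members lower in RT against BT became 14 after quantile normalization, which called 1815 of all genes lower there. The centring gave 29. These contrasts share their arrays with those against tissue.

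The retinal genes stood out in both comparisons. Cplx4 was higher in RMVs than in BMVs by 5.25 ± 0.12 (adjusted p = 2.04e-23) and in RT than in BT by 5.80 ± 0.12 (adjusted p = 1.07e-24), with every retinal array above every brain array. Cplx3 was higher by 2.26 ± 0.09 in RMVs and by 2.92 ± 0.09 in RT. Syt9, a fast calcium sensor, had 8.08, 8.26 and 8.90 in RMVs, against 4.58, 5.36 and 5.68 in BMVs (3.13 ± 0.14, adjusted p = 2.47e-16), and 8.79, 8.93 and 9.10 in RT, against 6.57, 7.05 and 7.18 in BT (1.94 ± 0.14). The photoreceptor markers differed in the same direction, averaging 12.57 in RMVs and 5.21 in BMVs, and the bipolar cell markers averaged 8.89 in RMVs and 5.90 in BMVs. Their part in these differences was not tested.

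Stx3, the syntaxin of ribbon synapses and of apical membranes of epithelia, was lowest in BT. It had 9.58, 9.74 and 9.89 in RMVs, against 9.22, 9.45 and 9.66 in RT, which overlapped (0.27 ± 0.09, adjusted p = 0.00575). In BMVs it had 8.43, 8.78 and 8.91, against 5.81, 6.03 and 6.07 in BT (2.75 ± 0.09, adjusted p = 1.46e-20). BT was therefore far below the other groups, and no BMV array reached an RMV array. RT exceeded BT by 3.48 ± 0.09 (adjusted p = 1.03e-22) and RMVs exceeded BMVs by 1.00 ± 0.09 (adjusted p = 1.02e-10), the last at the threshold. It was under 2-fold without replicate 1, 2 or 5 of RMVs or replicate 4 or 6 of BMVs (0.94 to 0.98), and at 0.70 after centring on array medians. Photoreceptor markers in BMVs averaged 5.21, against 4.89 in BT. Syt15 was also lowest in BT, with RT over BT by 1.80 ± 0.10 and RMVs and BMVs at a difference of -0.18 ± 0.10.

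**Figure D4:**
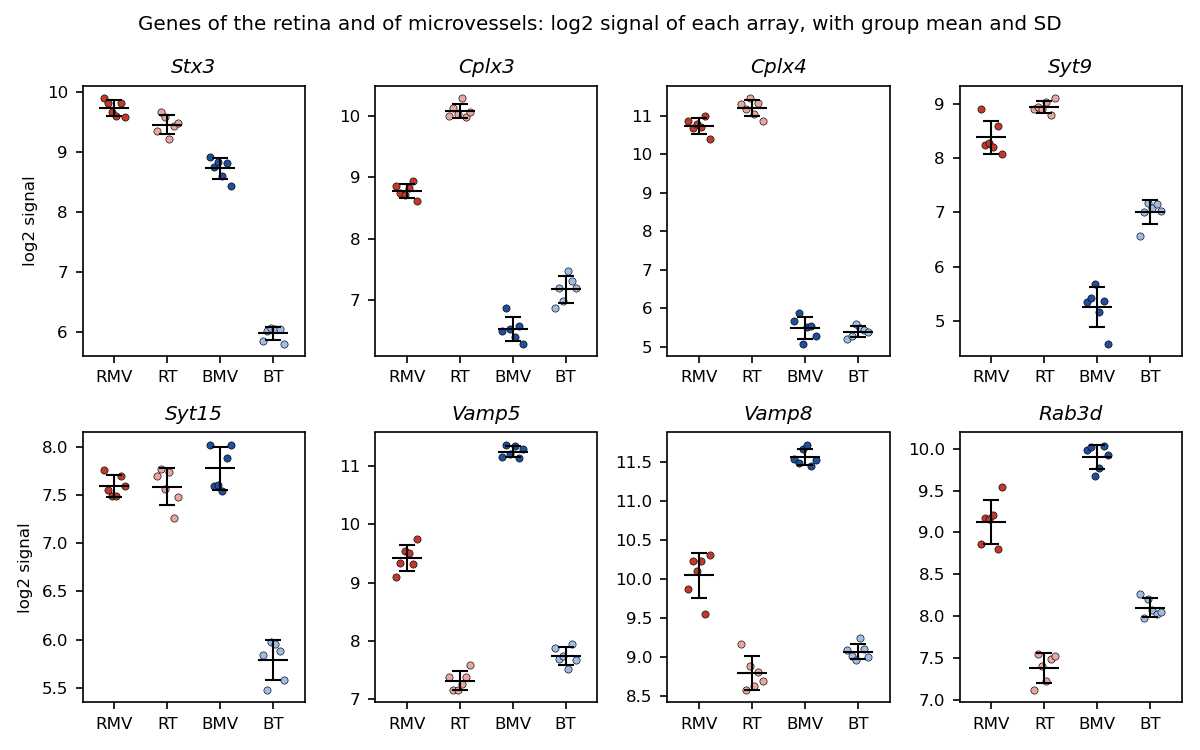
Log2 signal of 8 genes on each array (points) in RMVs, RT, BMVs and BT, with the group mean and SD (bars, n = 6 arrays); each panel has its own axis. Cplx4 separates retina from brain, Vamp5, Vamp8 and Rab3d separate microvessels from tissue, and Stx3 and Syt15 are low in BT alone.

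Several genes of the vesicle cycle were also higher in RMVs than in BMVs. Sv2b (2.25 ± 0.08), Syt1 (1.96 ± 0.08), Syp (1.94 ± 0.08), Syt4 (1.82 ± 0.10), Napb (1.47 ± 0.10) and Sv2a (1.37 ± 0.08) passed both thresholds there. None of these was called between RT and BT except Napb, whose RT minus BT difference was -1.09 ± 0.10 and was not called after quantile normalization. Stxbp5l (1.05 ± 0.12) and the dim Stx19 (1.15 ± 0.12) completed the higher members. Stxbp5l was under 2-fold without replicate 1 or 5 of RMVs or replicate 4 of BMVs, and Stx19 was not called after quantile normalization. Both were under 2-fold after centring on array medians (0.75 and 0.86). The lower members in RMVs against BMVs were Vamp5 (-1.83 ± 0.09), Vamp8 (-1.51 ± 0.11), Syt17 (-1.46 ± 0.15), Stxbp6 (-1.41 ± 0.09) and Stx1a. Between the tissues, Stxbp4 was just past the threshold (1.01 ± 0.10) and under it without any of 5 single arrays (replicates 3, 4 and 5 of RT, 1 and 3 of BT; 0.97 to 1.0). Syt17 had the largest negative difference, with 6.40, 6.91 and 7.41 in RT, against 10.70, 10.95 and 11.16 in BT (-4.05 ± 0.15, adjusted p = 5.26e-19). Stx1a, Syn2 (-2.68 ± 0.08), Syt5 (-2.67 ± 0.07) and Cplx1 (-2.63 ± 0.09) came next.

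**Figure D5:**
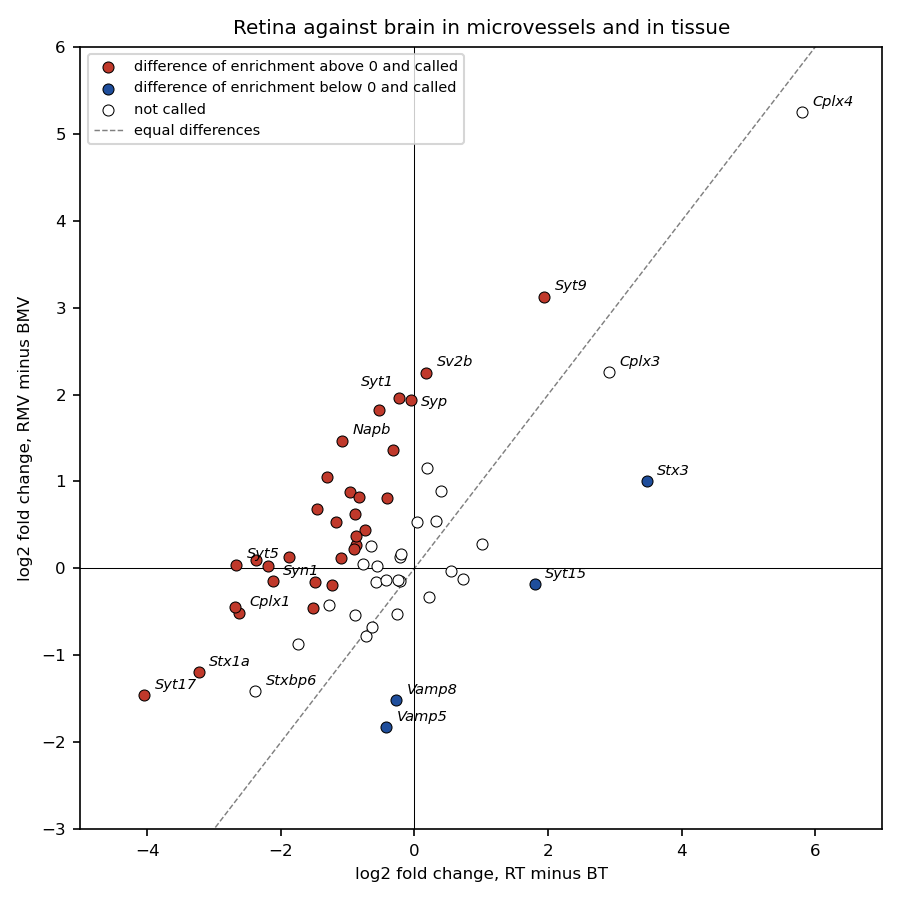
Log2 fold change of each of the 61 genes in RT minus BT (x axis) and RMV minus BMV (y axis), with the dashed line at equal differences; red and blue mark genes whose RMV minus RT and BMV minus BT changes differ past both thresholds. Most genes lie above the line, near 0 or higher on the y axis and below 0 on the x axis, while Stx3, Syt15, Vamp5 and Vamp8 lie below it.

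The partners of these genes in release were counted as well, against the background over all genes of 10.3% higher and 0.947% lower in RMVs and 16.3% higher and 10.5% lower in BMVs. Of 21 genes of the active zone and of vesicle priming, 15 were lower (71.4%) and 3 higher (14.3%) in BMVs against BT. In RMVs against RT, 1 was lower (4.76%) and none higher. Quantile normalization gave 17 lower in BMVs and 4 lower in RMVs, where it called 2444 and 918 of all 18166 genes lower. Pclo, a scaffold of the active zone, differed by -3.08 ± 0.08 in BMVs and by -0.87 ± 0.08 in RMVs, and Rims2 by -2.81 ± 0.07 in BMVs and by -0.59 ± 0.07 in RMVs. Unc13b, a Munc13 priming factor, was higher in BMVs (1.75 ± 0.08). Doc2b, a sensor of spontaneous release, was higher in RMVs than in BMVs by 3.12 ± 0.12 and in RT than in BT by 2.32 ± 0.12.

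Of 12 genes of vesicle recycling, 10 were lower (83.3%) and 1 higher (8.33%) in BMVs, and none was lower and 1 higher in RMVs. The higher one in both was Sypl1, the widely expressed relative of synaptophysin, at 1.52 ± 0.09 in RMVs and 1.24 ± 0.09 in BMVs. Synpr, a synaptoporin, differed by -2.97 ± 0.13 in BMVs and -0.81 ± 0.13 in RMVs. Of 7 vesicular transmitter carriers, 4 were lower in BMVs (57.1%) and 1 in RMVs (Slc17a6, a glutamate carrier, -1.35 ± 0.14). After quantile normalization 5 of the 7 were lower in BMVs and 4 in RMVs, so this contrast depends on the scaling. That scaling called 918 of all 18166 genes lower in RMVs and 2444 in BMVs. Slc17a7, the other main glutamate carrier, differed by -2.79 ± 0.08 in BMVs and by -0.61 ± 0.08 in RMVs. Of 12 other SNAREs and NSF, 2 were lower in BMVs (16.7%; Nsf, -2.10 ± 0.07, and Ykt6, -1.48 ± 0.12) and none was called in RMVs. Of 13 effectors of Rab27 and secretory granules, 2 were higher (15.4%) and 1 lower (7.69%) in RMVs, and 3 were higher and 3 lower in BMVs (23.1% each). Myrip, which links Rab27 to myosin, was higher in both (1.76 ± 0.10 in RMVs and 1.33 ± 0.10 in BMVs), and Rab27b was lower in both (-1.11 ± 0.12 in RMVs and -1.90 ± 0.12 in BMVs).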

How the data were processed

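RMVs, RT, BMVs and BT of 6 male Wistar rats were measured on 24 Affymetrix Rat Gene 2.0 ST arrays, from 1 ng of total RNA each. Per the labels, the authors normalized the arrays in Affymetrix Expression Console (version 4.0) and deposited log2 signals. Which normalization was run, and on which annotation build, is not given in the sources used here; the values were used as deposited. Of 36685 clusters, 18511 carried a single symbol, 575 several and 17599 none in the annotation used here, and 18394 of those with 1 symbol were matched by Entrez identifier. A gene was represented by its brightest cluster, judged by the mean of the 24 arrays. Groups follow the labels, and replicates are arrays that the labels call biological. The 4 groups entered 1 model in limma 3.58.1 (R 4.3.3), with eBayes moderation, no replicate block and Benjamini-Hochberg adjustment over 18166 genes. Tests were two-sided, and the script was tested on simulated data. The number of arrays limits the precision. A gene was called at 2-fold and an adjusted p under 0.05. Every member may be named. The lowest, median and highest arrays are given for members of the fusion core, ribbon synapses and SNAP adaptors and for the largest called changes, and from each other list the 1 to 4 largest changes are named. Values of further members, among them Cplx2, Syp, Syn1, Syt15, Rab3d and Stxbp5l, were added after they were seen. The members and lists were chosen with earlier results of these data known. Alternatives were quantile normalization, centring on array medians, the mean of a gene's clusters, removal of genes below the first quartile, a fit of the compared groups alone, a replicate block, trend with robust moderation and leaving out each array. Promoter windows are 250 bases upstream from RefSeq (GRCr8).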

Additional observations from a re-analysis of the deposited data

Results flagged for a closer look

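For 35 of the 61 members the change in RMVs against RT differed from that in BMVs against BT past both thresholds, in limma's test of the difference. The 31 differences above 0 were, on the log2 scale, Syt5 2.71, Syt17 2.59, Napb 2.56, Syt16 2.48, Syt4 2.36, Stxbp5l 2.35, Syn2 2.24, Syt10 2.21, Syt1 2.20, Syt3 2.14, Cplx1 2.12, Sv2b 2.07, Stx1a 2.03, Vamp1 2.02, Syp 1.99, Syn1 1.97, Rab3a 1.85, Rab3c 1.70, Sv2a 1.69, Syn3 1.66, Syt13 1.52, Stx6 1.33, Syt2 1.26, Napa 1.23, Snap25 1.23, Syt9 1.18, Syt12 1.18, Napg 1.14, Syt7 1.13, Cplx2 1.06 and Stx7 1.04. The 4 below 0 were Vamp8 -1.24, Vamp5 -1.40, Syt15 -1.98 and Stx3 -2.47. After quantile normalization Stx6, Napg, Syt2, Syt12, Syt7, Cplx2 and Stx7 were under 2-fold (0.63 to 0.96).

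In 15 of the 244 sets of 6 arrays of a member and group, the highest or lowest array stood apart from the nearest other by more than Dixon's limit allows, and chance gives this for about 1 in 20 sets. In RMVs the lowest arrays were Cplx2 (replicate 6) at 9.03, Stx1a (replicate 2) at 8.08, Sv2b (replicate 6) at 10.57, Syp (replicate 6) at 11.34, Syt16 (replicate 3) at 6.23 and Vamp2 (replicate 6) at 10.03. Of these, Cplx2, Sv2b, Syp and Vamp2 had the array of replicate 6 as the lowest, on which the endothelial markers averaged 12.08 (the highest RMV array) and the neuronal markers 8.24 (the lowest). In RT the lowest arrays were Stx5 (replicate 4) at 8.89, Stx7 (replicate 1) at 7.81, Stxbp4 (replicate 1) at 7.33 and Syt6 (replicate 1) at 7.46. In BT the lowest were Sv2a (replicate 2) at 10.29 and Syt9 (replicate 1) at 6.57, and the highest were Stx19 (replicate 2) at 4.95 and Vamp7 (replicate 6) at 10.39. In BMVs the highest was Stxbp6 (replicate 5) at 9.27.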

How the results depend on the processing

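Centring each array on its median turned the RMV minus RT counts into 2 higher and 25 lower members, and no called difference of a member turned its sign under any alternative run. Of all 305 member differences, 33 turned their sign under quantile normalization and 43 under this centring, none of them called. The median member in RMV minus BMV was 0.12 and turned to -0.17 with the centring. The median member in RMV minus RT moved to -0.71 with this centring and to -0.52 with quantile normalization. For the difference of changes it moved from 1.04 to 0.79 with quantile normalization. The other counts stayed within 1.5 times the main ones. Leaving out 1 array at a time gave 6 higher and 7 to 11 lower members for RMV minus RT, 9 and 33 to 35 for BMV minus BT, 10 to 12 and 5 for RMV minus BMV, 5 to 6 and 20 for RT minus BT, and 31 to 32 and 4 for the difference of changes. In RMV minus RT the calls of Cplx2, Syp and Syt4 were lost without single arrays (Syt4 -0.98 without replicate 4 of RMVs and -0.97 without replicate 6). The labels do not say whether a replicate number marks a rat, so the numbers were not treated as pairs. After each gene's group mean was subtracted, same-numbered arrays correlated at 0.04 to 0.15 between RMVs and RT. Between BMVs and BT they correlated at -0.09 to 0.12. In these deviations 5 of 6 RMV arrays and 3 of 6 BMV arrays correlated best with the tissue array of their own number. Whether same-numbered arrays share a rat was not settled by this. With the replicate block all calls of the members remained, 10 lower in RMV minus RT and 33 in BMV minus BT. The choice of scaling limits what can be said of members near 2-fold in the retina.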
